A study of Mus musculus with 16 samples.

Results

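The genes described here encode the xenobiotic metabolism enzymes of 5 families. These include the cytochromes P450 of subfamilies 1 to 4 (Cyp) and the alpha, mu, theta, pi, kappa and omega class glutathione S-transferases (Gst). The others are the UDP-glucuronosyltransferases (Ugt), the carboxylesterases (Ces) and the sulfotransferases (Sult). The genes were chosen by symbol and by a minimum of 20 UMIs (unique molecular identifiers, each standing for 1 captured mRNA) summed over both genotypes. Of 24421 genes in the deposited matrices, 160 symbols matched the families and 50 reached the minimum, while 38 held 1 to 19 UMIs and 72 were listed at 0. The 50 genes comprised 17 of 86 Cyp symbols, 17 of 20 Gst, 5 of 18 Ugt, 6 of 19 Ces and 5 of 17 Sult symbols. Just inside the minimum lay Cyp2d22 (25 UMIs), Ces2b (34 UMIs) and Cyp3a11 (35 UMIs), and just outside it lay Cyp2d37.ps (17 UMIs), Cyp4f40 (15 UMIs) and Cyp2b10 (14 UMIs). Because a gene detected in any single cell class could pass, the 50 genes are those seen in these cells and not a survey of the families.

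The cells were single cells prepared from intestinal crypt isolates of untreated outbred mice at postnatal day 16, of 2 genotypes with 8 labelled samples each. WT mice were wild type. ROBO mice carried the RSPO3-Crainbow transgene, which encodes human RSPO3 and a pair of PTPRK-RSPO3 fusions, each with its own fluorescent protein, and Villin-Cre recombined it in the intestinal epithelium. A ROBO cell therefore expressed 1 of several transgene positions or none, and the matrices do not say which. How many mice were used is not given in the sources used here. The deposited matrices pool the samples of a genotype with cell names that carry no library, so each genotype was 1 pooled sample here, no test between genotypes was possible, and shared cell barcodes could not be counted. WT had 1348 cells and 2682127 UMIs, and ROBO had 1249 cells and 2428435 UMIs, where the labels give up to 2400 cells as the aim per genotype. Cells were grouped by clustering that left out all 160 family symbols, and levels below are the UMIs of a gene per 10000 UMIs of all genes in the same class. All intervals are exact 95% intervals for counting error only and do not cover the spread between mice or libraries.

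Xenobiotic metabolism is commonly described in phases. Cytochromes P450 oxidize and carboxylesterases hydrolyse lipophilic compounds, and the transferases then attach glutathione, glucuronic acid or sulfate so that the products can be exported. In the small intestine these enzymes are known from absorptive enterocytes of the villus, where they act on ingested compounds before these reach the liver, and several of them also act on fatty acids, steroids, retinoids and bile acids. The stem and transiently amplifying (TA) cells of the crypt give rise to enterocytes that move up the villus from its bottom to its top.

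RefSeq promoters, from 250 bases before to 50 bases after the start of the gene on GRCm38.p6, matched 44 of the 50 genes and were searched on both strands for the letters of 6 motifs. The letters CAAAGTCCA, of a type bound by the enterocyte and liver factor HNF4, stood in 3 of 44 promoters (6.82%) against 0.474% of 27025 promoters. An HNF1-type motif of 10 letters with 1 free base, which reads GTTAATAATT where it was found, stood in 1 of 44 (2.27%) against 0.437%. The core GCGTG of the site of the aryl hydrocarbon receptor (AhR), which induces Cyp1 genes, stood in 11 (25%) against 32.5%, and the antioxidant response element core TGACNNNGC in 4 (9.09%) against 12.4%. The CDX-type letters TTTATNG stood in 2 (4.55%) against 11.3%, and TATAAA in 7 (15.9%) against 14.2%. Shown are the 4 promoters with HNF4-type or HNF1-type letters, and that of Gstp1, the gene with many UMIs that differed most between the genotypes. Of the 4, Cyp2c68, Cyp3a11 and Sult1d1 are among the genes at least 2-fold higher in villus than crypt described below, and Cyp2c65 is not. A link between the letters and the zones was not tested. Capitals mark every match to any of the 6 motifs on either strand, no printed match overlaps another, and a match describes letters and not a bound site.
Cyp2c65: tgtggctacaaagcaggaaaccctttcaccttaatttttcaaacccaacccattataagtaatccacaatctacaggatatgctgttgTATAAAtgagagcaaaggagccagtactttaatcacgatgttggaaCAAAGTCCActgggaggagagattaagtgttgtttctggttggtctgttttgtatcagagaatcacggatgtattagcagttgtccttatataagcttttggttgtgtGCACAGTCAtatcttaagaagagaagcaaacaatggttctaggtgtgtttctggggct
Cyp2c68: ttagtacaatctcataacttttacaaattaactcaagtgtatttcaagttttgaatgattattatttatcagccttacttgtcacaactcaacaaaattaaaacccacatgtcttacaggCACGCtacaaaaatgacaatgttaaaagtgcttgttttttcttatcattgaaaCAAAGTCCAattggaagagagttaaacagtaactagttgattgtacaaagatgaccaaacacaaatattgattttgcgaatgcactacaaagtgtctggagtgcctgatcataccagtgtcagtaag
Cyp3a11: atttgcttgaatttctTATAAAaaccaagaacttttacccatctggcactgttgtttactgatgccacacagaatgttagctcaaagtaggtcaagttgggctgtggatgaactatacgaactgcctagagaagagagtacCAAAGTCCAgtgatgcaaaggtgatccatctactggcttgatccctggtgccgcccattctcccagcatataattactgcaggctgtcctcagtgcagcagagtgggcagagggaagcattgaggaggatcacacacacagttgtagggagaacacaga
Sult1d1: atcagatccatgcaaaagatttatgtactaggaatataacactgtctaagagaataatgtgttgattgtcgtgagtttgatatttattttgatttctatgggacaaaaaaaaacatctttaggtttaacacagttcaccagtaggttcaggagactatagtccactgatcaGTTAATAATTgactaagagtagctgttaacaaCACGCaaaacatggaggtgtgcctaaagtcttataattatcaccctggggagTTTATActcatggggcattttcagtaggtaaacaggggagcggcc
Gstp1: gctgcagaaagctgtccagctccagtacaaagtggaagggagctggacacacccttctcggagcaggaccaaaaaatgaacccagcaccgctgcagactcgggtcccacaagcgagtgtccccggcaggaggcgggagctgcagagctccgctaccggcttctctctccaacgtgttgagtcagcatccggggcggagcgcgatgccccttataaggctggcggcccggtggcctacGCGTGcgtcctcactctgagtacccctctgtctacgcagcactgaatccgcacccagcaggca
They lie at chr19:39060756-39061055 (plus strand) for Cyp2c65, chr19:39741052-39741351 (minus) for Cyp2c68, chr5:145879805-145880104 (minus) for Cyp3a11, chr5:87568957-87569256 (minus) for Sult1d1 and chr19:4037863-4038162 (minus) for Gstp1. Counting the start site as 0, the HNF4-type letters began at position -116 in Cyp2c65, -77 in Cyp2c68 and -109 in Cyp3a11, and the HNF1-type letters at -79 in Sult1d1. In Gstp1 the only match was the AhR core at -13.

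The clusters gave 519 stem cell-like and 706 TA-like cells, together called crypt-like, and 818 enterocyte-like cells in 4 clusters. Of these, 178 were bottom, 278 middle with Lct (lactase, the disaccharidase of suckling) among the genes that set them apart, 127 middle with Sis (sucrase-isomaltase, of the weaned gut) and 235 top enterocyte-like. Enterocyte-like cells were thus present although the label of the cells is intestinal crypt. A further 346 cells in a pair of clusters stayed unnamed, and 126 secretory-like, 29 enteroendocrine-like, 45 immune-like and 8 fibroblast-like cells made up the rest. The median depth per cell ranged from 897.5 UMIs in 1 of the TA-like clusters to 3111.5 UMIs in 1 of the unnamed clusters.

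The 50 genes took 26.4 UMIs per 10000 (95% interval 25.5 to 27.4) in WT crypt-like cells and 61.9 (60.2 to 63.6) in WT enterocyte-like cells. In ROBO the same sums were 24.8 (23.9 to 25.8) and 62.6 (60.9 to 64.3). The enterocyte-like sum was above the crypt-like sum in both genotypes, with no overlap of the intervals. The summed level was 20.8 in stem cell-like, 28.3 in TA-like and 69.9 in bottom cells of both genotypes together. It was 49.9 in middle Lct, 107 in middle Sis and, lower again, 29.1 in top cells. The middle clusters are given Lct first, and their order on the villus was not determined. The bottom enterocyte markers summed to 80.4 in WT and 92.4 in ROBO Sis cells, against 53.2 and 46.9 in Lct cells. The top enterocyte markers summed to 313 and 251 in Sis cells, against 420 and 482 in Lct cells. For the 50 genes the secretory-like sum was 18.8. Their immune-like sum, a guide to free RNA from broken epithelial cells, was 10.9 (8.85 to 13.3). For some genes the immune-like level was above the crypt-like one, from few UMIs. Examples are Gstm3 (0.779 against 0.458), Gstk1 (0.334 against 0.125), Sult2b1 (0.334 against 0.262) and Cyp4f13 (0.445 against 0.329). Gstt2, at 0.668, was above its enterocyte-like level of 0.595. For others, such as Ces2e (0.556 against 2.42), it was below. The part of free RNA in the crypt-like levels was not tested. Of the 50 genes, 23 were at 0 among 45 immune-like cells. A count of 0 there has an exact 95% upper limit of 0.410 UMIs per 10000.

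**Figure D1:**
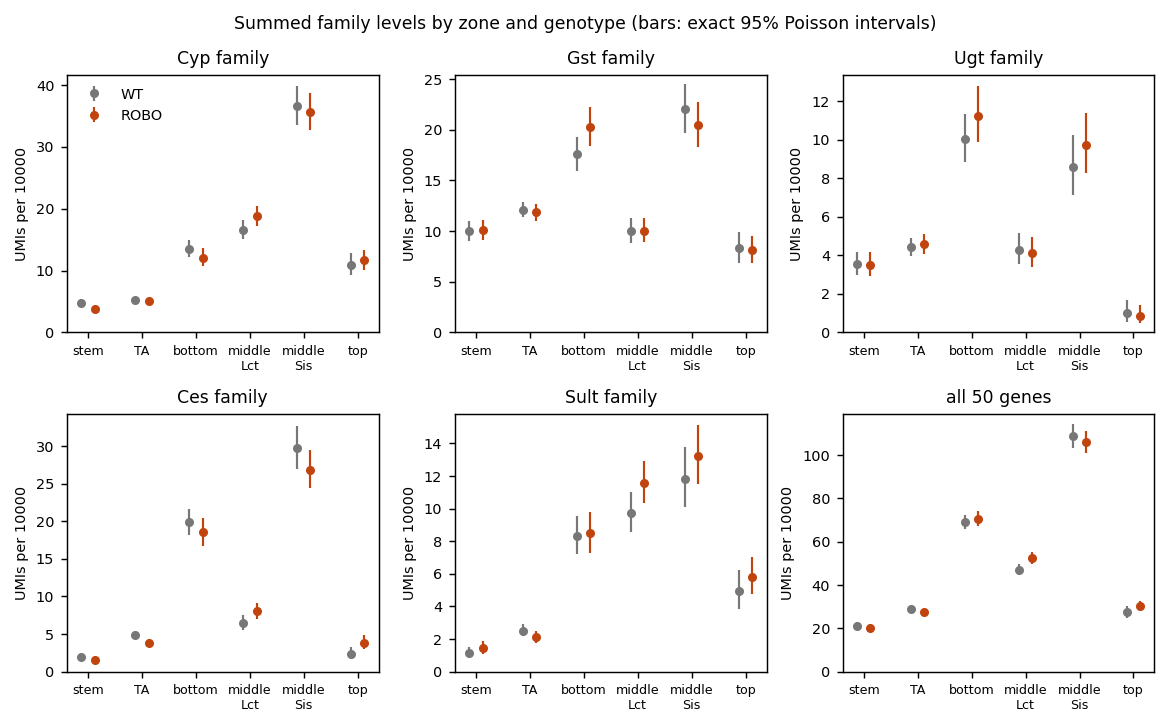
Each panel plots the summed UMIs per 10000 UMIs (vertical axis) of 1 family, or of all 50 genes, in the 6 zones from stem to top (horizontal axis), with WT and ROBO as separate points and exact 95% Poisson intervals as bars. The Cyp and Ces families were highest in the middle Sis zone of both genotypes, and Ugt was lowest at the top, at 1.00 in WT and 0.863 in ROBO.

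Of the 50 genes, 26 (52%) were at least 2-fold higher in enterocyte-like than in crypt-like cells in both genotypes, where 8.61% of 10634 genes with at least 20 UMIs were. None of the 50 was at least 2-fold lower in both genotypes, where 17.3% of all genes were. The median log2 ratio of the 50 genes was 1.17 in WT and 1.31 in ROBO, against -0.32 and -0.39 over all genes, with genes at 0 in a zone set at the bound that 3 counts give. By family the count was 12 of 17 Cyp, 6 of 17 Gst, 1 of 5 Ugt, 4 of 6 Ces and 3 of 5 Sult genes. Scaling by the median gene ratio in place of total UMIs added 0.25 to the log2 ratios in WT and 0.33 in ROBO and gave 29 higher genes. Coarser clustering, at resolution 0.4, gave 4 lower genes (Ces1e, Cyp2c55, Gstm2 and Ugt2b35).

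**Figure D2:**
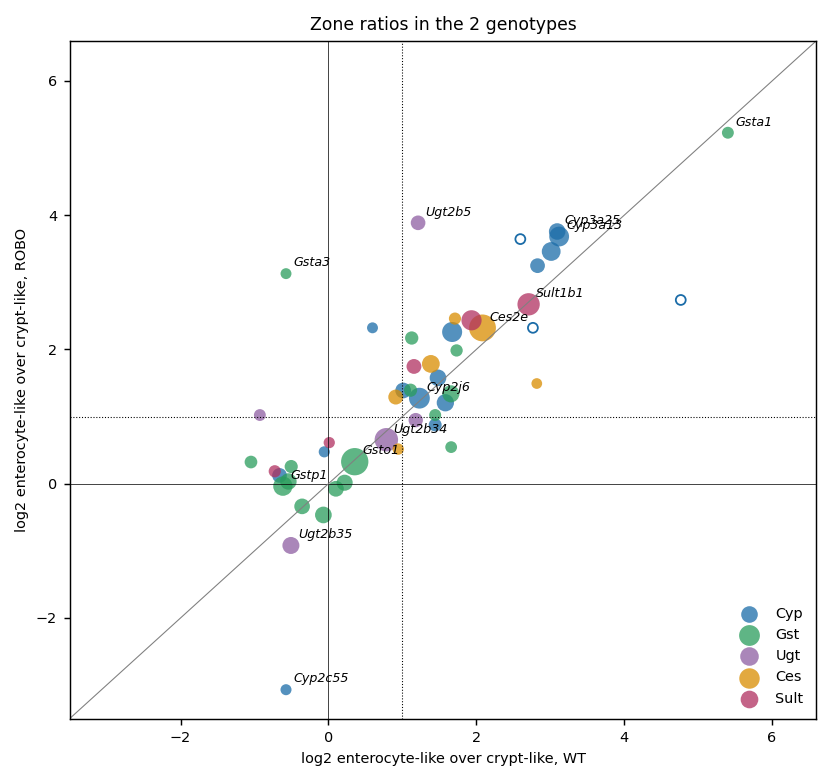
Each point is 1 of the 50 genes, placed by its log2 ratio of enterocyte-like over crypt-like UMIs per 10000 in WT (horizontal) and in ROBO (vertical), coloured by family, with an area that grows with total UMIs, open circles where a zone had 0 UMIs and the bound of 3 counts is plotted, dotted lines at 2-fold and the grey diagonal where both genotypes are equal. The 26 genes past both dotted lines include Cyp3a13 and Sult1b1, Gsto1 lies near 0.36 and 0.33, and Ugt2b5 lies above the diagonal.

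The family sums differed in how far they separated villus from crypt. Sult genes were 2.11 higher on the log2 scale in WT enterocyte-like than crypt-like cells (1.90 to 2.33) and 2.39 in ROBO (2.16 to 2.62). The log2 ratio of Ces was 1.88 (1.73 to 2.04) for WT and 2.16 (1.98 to 2.34) for ROBO, and that of Cyp was 1.86 (1.72 to 2.00) and 2.05 (1.90 to 2.20). The ratios were smaller for Ugt, at 0.62 (0.43 to 0.80) and 0.59 (0.40 to 0.78), and for Gst, at 0.33 (0.21 to 0.44) and 0.34 (0.23 to 0.46). In each genotype the intervals of Sult, Ces and Cyp lay above those of Ugt and Gst. Without the bottom cells the ratio of Ugt was 0.15 in WT and 0.14 in ROBO, and that of Gst was 0.17 and 0.12.

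**Figure D3:**
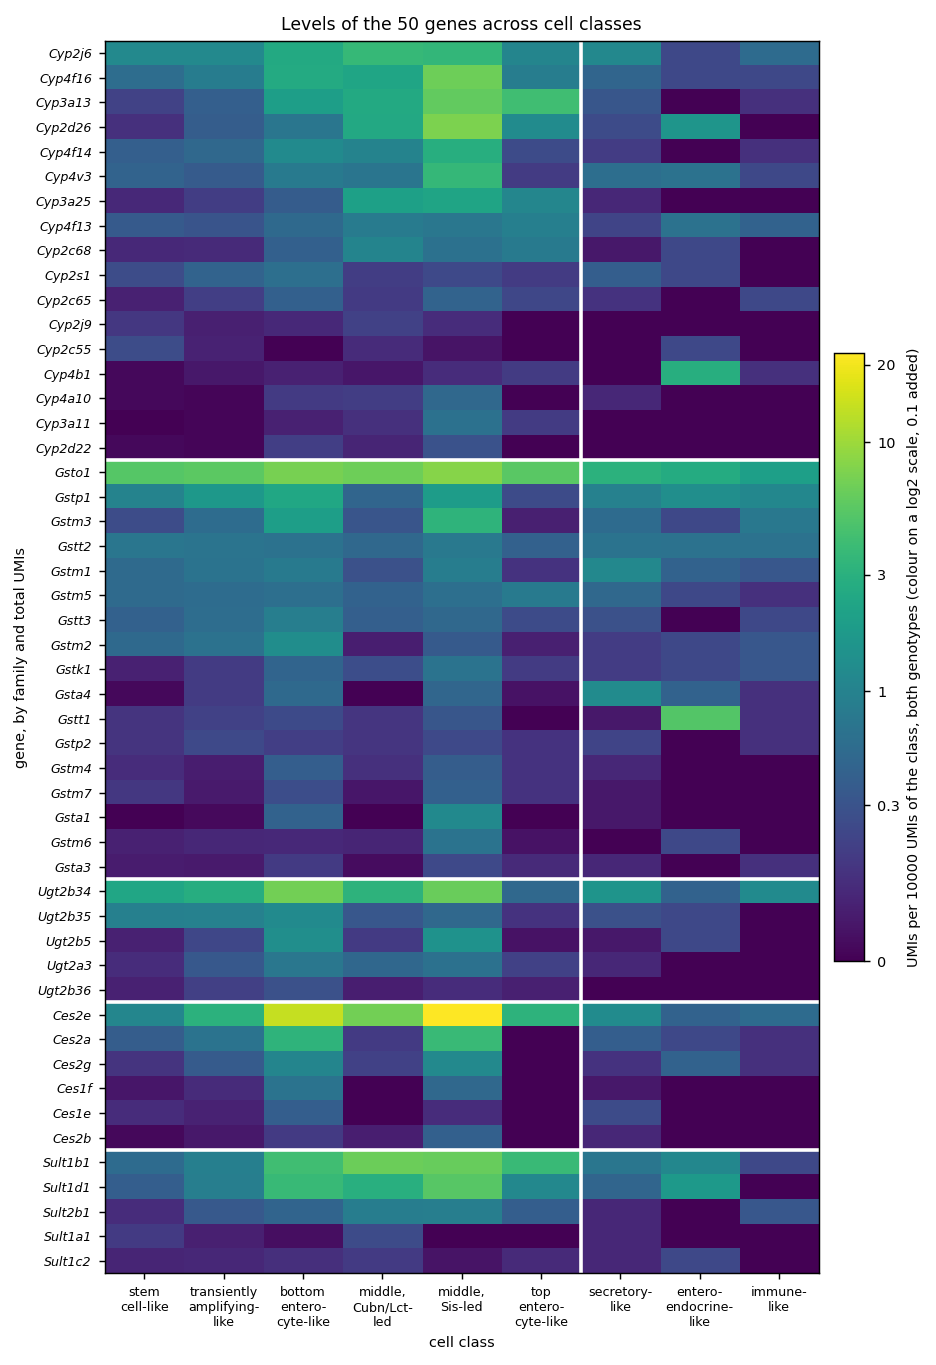
The colour gives the UMIs per 10000 UMIs of both genotypes together, on a log2 scale with 0.1 added, for each of the 50 genes (vertical axis, by family) in 6 zones and 3 other classes (horizontal axis). The middle Sis column was the highest of the 6 zones for 28 of the 50 genes, against 12.4% of all genes, and Gsto1 is bright in each zone.

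Among the 6 zones, 28 genes (56%) had their highest level in the middle Sis zone, where 12.4% of all 10634 genes had theirs. The highest zone was the bottom for 12 genes (16.1% of all genes), the middle Lct zone for 6 (9.96%), the top for 3 (13%), stem cell-like cells for 1 (25.8%) and TA-like cells for 0 (22.7%). The zone was the same in both genotypes for 26 genes (43.8% of all genes), and for 13 the interval of the highest zone did not overlap that of the next (9.44%). Within the middle enterocyte-like cells, 21 of the 50 genes were at least 2-fold higher in Sis than in Lct cells in both genotypes (2.91% of all genes), and 0 were lower (3.49%). The 21 were 6 Cyp, 9 Gst, 1 Ugt and 5 Ces genes and no Sult gene. Between the ends of the villus, 19 genes were at least 2-fold lower at the top than at the bottom in both genotypes (16.3% of all genes), and 0 were higher (6.63%).

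The step from crypt to villus bottom already separated many of the genes. Here 22 of the 50 were at least 2-fold higher in bottom enterocyte-like than in crypt-like cells in both genotypes (4.51% of all genes), all 6 Ces genes among them, and 0 were lower (7.2%). Within the crypt, 7 genes were at least 2-fold higher in TA-like than in stem cell-like cells in both genotypes (3% of all genes), namely Ces1f, Ces2e, Ces2g, Gstk1, Sult2b1, Ugt2a3 and Ugt2b36. The 3 lower ones (2.07% of all genes) were Cyp2c55, Cyp2j9 and Sult1a1. Of these 10 genes, the 9 other than Ces2e rest on few UMIs, such as 2 in WT and 1 in ROBO stem cell-like cells for Ces1f. From bottom to middle, 3 Cyp genes, Cyp2d26, Cyp3a11 and Cyp3a25, were higher (4.98%) and 6 genes were lower (6.05%), and from middle to top 17 genes were lower (7.88%) and 0 higher (2.65%).

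The Cyp genes held 4995 UMIs, 25.9% of the UMIs of the 50 genes. Cyp3a13, a member of the drug-oxidizing Cyp3a subfamily, was at 0.263 UMIs per 10000 in WT stem cell-like, 0.481 in TA-like, 2.16 in bottom, 2.68 in middle Lct, 5.82 in middle Sis and 5.23 in top cells. In ROBO it was at 0.106, 0.331, 1.74, 2.49, 6.14 and 3.40 in the same order. It was low in the crypt of both genotypes and, unlike most of the genes, was still high at the top. Its enterocyte-like over crypt-like log2 ratio was 3.12 (2.68 to 3.59) for WT and 3.68 (3.10 to 4.32) for ROBO.

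Its relative Cyp3a25 had 20 UMIs in WT crypt-like and 113 in enterocyte-like cells, and 11 and 119 in ROBO, for log2 ratios of 3.09 (2.40 to 3.86) and 3.76 (2.87 to 4.80). At the villus bottom Cyp3a25 was at 0.668 UMIs per 10000 in WT and 0.0471, from 1 UMI, in ROBO. In top cells it lay the other way, at 0.573 in WT and 1.51 in ROBO, from 8 and 28 UMIs. Cyp3a11, the best known Cyp3a enzyme of mouse liver, had 18 UMIs in WT and 16 in ROBO enterocyte-like cells against 1 and 0 in crypt-like cells, which made it at least 6.67-fold higher in ROBO. Cyp3a genes were thus enterocyte-like genes in both genotypes, with Cyp3a11 sparse.

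Cyp2d26, a Cyp2d enzyme, was at 8.79 UMIs per 10000 in WT middle Sis and 2.07 in WT middle Lct cells, and at 6.39 and 2.93 in ROBO. Its Sis over Lct log2 ratio was 2.09 (1.62 to 2.57) for WT and 1.12 (0.69 to 1.56) for ROBO, and its enterocyte-like over crypt-like ratio was 3.01 (2.53 to 3.53) and 3.46 (2.86 to 4.12). Cyp2c68 had the enterocyte-like over crypt-like log2 ratio 2.83 (1.82 to 3.98) in WT and 3.25 (2.29 to 4.37) in ROBO. Of the windows of 75 bases at its 3′ end, 33.3% also occur in other Cyp2c genes, so its count is uncertain.

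Cyp2j6, whose relatives epoxidize fatty acids, held 18.3% of Cyp UMIs and was the Cyp gene with most UMIs in stem cell-like cells. It was at 1.39 UMIs per 10000 in WT stem cell-like and 3.87 in WT middle Lct cells, and at 0.957 and 3.40 in ROBO. Its villus over crypt log2 ratio of 1.23 (0.92 to 1.54) in WT, and 1.27 (0.95 to 1.60) in ROBO, lay below those of the Cyp3a and Cyp2d genes above. Cyp4 enzymes hydroxylate fatty acids and eicosanoids, and Cyp4f16, Cyp4f14 and Cyp4v3 were all highest in the middle Sis zone. Cyp4f16 stood there at 6.16 UMIs per 10000 in WT and 7.13 in ROBO, against 0.787 and 0.971 at the top. Of the 3′ windows of Cyp4f16, 12.1% also occur in other genes, Cyp4f14 among them. Cyp4v3 was at 3.53 in both genotypes in the Sis zone, and at 0.422 in WT and 0.989 in ROBO middle Lct cells.

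Some Cyp genes, Cyp2s1 and Cyp2c55 among them, were not clearly higher in enterocyte-like than in crypt-like cells. The highest zone of Cyp2s1 was still the villus bottom in both genotypes, at 0.621 UMIs per 10000 against 0.454 in TA-like cells of both together. Cyp2s1, an epithelial P450, had 55 UMIs in WT crypt-like and 23 in enterocyte-like cells, and 31 and 27 in ROBO, for log2 ratios of -0.66 (-1.43 to 0.06) and 0.12 (-0.68 to 0.91). Cyp2c55 was at 0.168 UMIs per 10000 in WT and 0.345 in ROBO stem cell-like cells, its highest zone, and at 0 in bottom and top cells. Cyp1a1 and Cyp1b1, the classical targets of the aryl hydrocarbon receptor, were listed at 0 in both genotypes.

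The Gst genes held 6128 UMIs, 31.7% of the total and the most of any family. Gsto1, an omega class enzyme that reduces dehydroascorbate and arsenic compounds, held 48.0% of Gst UMIs. It was at 5.22 UMIs per 10000 in WT stem cell-like, 5.66 in TA-like, 7.43 in bottom, 6.98 in middle Lct, 7.68 in middle Sis and 5.80 in top cells. In ROBO the levels in that order were 5.29, 5.48, 7.11, 6.48, 8.62 and 5.29. Its level varied little across the zones, with an enterocyte-like over crypt-like log2 ratio of 0.36 (0.19 to 0.52) in WT and 0.33 (0.16 to 0.50) in ROBO.

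Gstp1, the pi class enzyme, was at 0.934 UMIs per 10000 in WT stem cell-like, 1.27 in TA-like, 1.06 in bottom, 0.345 in middle Lct, 1.52 in middle Sis and 0.143 in top cells. In ROBO it was at 1.14, 2.15, 4.05, 0.622, 2.23 and 0.324. It was low in Lct and top cells of both genotypes, and the bottom zone was the highest in ROBO only. At its 3′ end 33.4% of windows of 75 bases are shared with Gstp2, so part of the count may belong to either gene.

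The mu class genes Gstm1 to Gstm7 lie side by side at chr3:107895821-108044894. Gstm3 was at 4.02 UMIs per 10000 in WT middle Sis cells and 0.307 in middle Lct cells, and at 2.60 and 0.330 in ROBO. Its Sis over Lct log2 ratio was 3.71 (2.64 to 4.99) for WT and 2.98 (1.92 to 4.21) for ROBO. Gstm2 was instead highest in bottom cells, where it was above crypt-like cells by a log2 ratio of 1.06 (0.47 to 1.61) in WT and 1.14 (0.34 to 1.89) in ROBO. Over all enterocyte-like cells its ratios were -0.36 (-0.90 to 0.17) and -0.34 (-1.04 to 0.34), intervals that include 0.

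The theta class gene Gstt2 had log2 ratios of -0.07 (-0.59 to 0.44) in WT and -0.47 (-1.04 to 0.09) in ROBO, and Gstm1 of -0.54 (-1.12 to 0.01) and 0.03 (-0.57 to 0.63). For both the intervals include 0. Gsta1, an alpha class enzyme, was instead nearly limited to bottom and Sis cells. It had 19 UMIs in WT and 18 in ROBO middle Sis cells and 0 in either genotype in Lct, stem cell-like and top cells, at least 11.4-fold higher in Sis than Lct cells in WT and at least 10.2-fold in ROBO. At its 3′ end 86.4% of windows are shared with Gsta2 and Gm3776, so these UMIs stand for the group.

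The Ugt genes held 2306 UMIs, all from the Ugt2 cluster on chromosome 5. The 8 listed Ugt1a symbols, which share their last exons and 58.1% to 100% of their 3′ windows, had 10 UMIs together, 7 of them on Ugt1a7c and 3 on Ugt1a1, and no statement on Ugt1 levels can be drawn from so few. Ugt2b34 held 66.5% of Ugt UMIs. It was at 2.25 UMIs per 10000 in WT stem cell-like, 2.73 in TA-like, 6.56 in bottom, 3.34 in middle Lct, 6.16 in middle Sis and 0.716 in top cells. In ROBO the values in that order were 2.47, 2.85, 7.44, 3.00, 6.70 and 0.378. Its top over bottom log2 ratio was -3.20 (-4.28 to -2.28) for WT and -4.30 (-5.64 to -3.22) for ROBO, so that top cells of both genotypes were below stem cell-like cells.

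Ugt2b35 had the lowest ratio of villus over crypt among genes with at least 100 UMIs, although its highest zone was the bottom of the villus, at 1.24 UMIs per 10000 against 0.98 in TA-like, 0.34 in middle Lct and 0.12 in top cells of both genotypes together. Enterocyte-like over crypt-like cells gave a log2 ratio of -0.51 (-1.04 to 0.00) for WT and -0.92 (-1.43 to -0.43) for ROBO. Ugt2b5 had 30 UMIs in WT crypt-like and 46 in enterocyte-like cells, but 6 and 71 in ROBO, for log2 ratios of 1.21 (0.52 to 1.93) and 3.89 (2.69 to 5.38). Ugt2a3 had 51 enterocyte-like UMIs in WT and 37 in ROBO, with log2 ratios of 1.18 (0.53 to 1.85) and 0.95 (0.17 to 1.75).

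The Ces genes held 3544 UMIs, of which Ces2e, a Ces2 carboxylesterase, had 77.3%. Ces2e was at 1.27 UMIs per 10000 in WT stem cell-like, 3.35 in TA-like, 14.1 in bottom, 6.02 in middle Lct, 23.7 in middle Sis and 2.36 in top cells. In ROBO it was at 0.93, 2.86, 13.2, 7.73, 20.9 and 3.83. Ces2e was higher in bottom and Sis cells than in Lct and top cells in both genotypes. Its enterocyte-like over crypt-like log2 ratio was 2.08 (1.90 to 2.27) for WT and 2.32 (2.11 to 2.54) for ROBO.

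Ces2a was likewise higher in bottom and Sis cells, with larger ratios to Lct cells. In WT it was at 3.03 UMIs per 10000 in bottom, 0.192 in middle Lct, 4.02 in middle Sis and 0 in top cells, and in ROBO at 3.49, 0.110, 3.60 and 0. Its Sis over Lct log2 ratio was 4.39 (3.08 to 6.06) for WT and 5.03 (3.41 to 7.35) for ROBO. Of the 6 Ces genes, the 5 other than Ces2e were at 0 in top cells of both genotypes, among 12 of the 50 genes that were (10.7% of all genes). Ces1f and Ces1e were highest in bottom cells, at 0.69 and 0.41 UMIs per 10000 in both genotypes together.

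The Sult genes held 2347 UMIs and were the only family in which no gene reached 2-fold between Sis and Lct cells in both genotypes. Sult1b1, which sulfonates phenols and thyroid hormones, held 52.8% of them. It was at 0.383 UMIs per 10000 in WT stem cell-like, 0.937 in TA-like, 3.97 in bottom, 6.10 in middle Lct, 5.75 in middle Sis and 3.29 in top cells. In ROBO it was at 0.771, 0.934, 4.29, 6.81, 6.76 and 4.21. Its level stayed high in Lct, Sis and top cells. The Sis over Lct log2 ratio of Sult1b1 was -0.09 (-0.49 to 0.31) for WT and -0.01 (-0.37 to 0.34) for ROBO.

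Sult1d1, which acts on catecholamines, had log2 ratios of enterocyte-like over crypt-like cells of 1.93 (1.59 to 2.29) in WT and 2.43 (2.04 to 2.85) in ROBO. Sult2b1, which sulfonates cholesterol and other sterols, had 1.16 (0.55 to 1.77) and 1.75 (0.96 to 2.59). Sult1a1, a phenol sulfotransferase, had 14 UMIs in enterocyte-like and 21 in crypt-like cells of both genotypes together, too few to order the zones.

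The zones also differed cell by cell. With each cell thinned to 912 UMIs, which kept 1948 cells and left out 649 shallower ones, the median number of the 50 genes detected was 1 in stem cell-like, 2 in TA-like, 5 in bottom, 4 in middle Lct, 6 in middle Sis and 2 in top cells, against 0 in immune-like cells. Without thinning the medians were 2, 3, 9, 5, 10, 2 and 1. After thinning Ces2e had a UMI in 97 of 114 middle Sis cells (85.1%, exact Clopper-Pearson 77.2 to 91.1), in 28 of 333 stem cell-like cells (8.41%, 5.66 to 11.9) and in 2 of 36 immune-like cells (5.56%, 0.680 to 18.7). The unthinned shares were 93.7%, 11.4% and 6.67%, at median depths of 1925, 1218 and 1750 UMIs. The intervals of the stem cell-like and immune-like shares overlap, and that of the Sis share lay above both. These intervals treat the cells, pooled over the genotypes, as independent, although cells of a library share their source. Whether the shares differ beyond the spread between mice or libraries was not tested. Gsto1 had a UMI in 110 of 333 thinned stem cell-like cells (33.0%, 28.0 to 38.4) and again in 2 of 36 immune-like cells (5.56%), with unthinned shares of 44.5% and 17.8%.

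Between the genotypes the families as a whole differed little when all enterocyte-like cells were summed. The log2 ratio of ROBO over WT was 0.04 (-0.06 to 0.14) for Cyp, -0.01 (-0.12 to 0.11) for Gst, -0.00 (-0.18 to 0.18) for Ugt, -0.08 (-0.20 to 0.04) for Ces and 0.15 (0.01 to 0.30) for Sult. By gene, 6 of the 44 genes with at least 20 UMIs in these cells were at least 1.5-fold higher in ROBO (7.38% of all genes at that depth), and 4 were at least 1.5-fold lower (9.46%). The higher ones were Cyp2c68, Cyp4a10, Gstp1, Gstp2, Gstt1 and Ugt2b36, and the lower ones Ces1e, Ces2b, Gstm2 and Gstm6. Most of them rest on few UMIs, since with a minimum of 50 UMIs only Cyp2c68 and Gstp1 were higher and 1 gene was lower. Gstp2 shares 55.1% of its 3′ windows, mainly with Gstp1, so it may not be a separate case. The lower count is near the background share, and with each cell thinned to 912 UMIs Gstp1 alone was higher. Over all cells 5 of 50 were higher (4.6%) and 1 was lower (4.86%). Within single enterocyte-like zones some family sums were higher in ROBO with intervals above 0. For Ces the log2 ratio was 0.70 (0.08 to 1.34) in top and 0.31 (0.02 to 0.61) in middle Lct cells. Sult was at 0.25 (0.01 to 0.49) in Lct and Gst at 0.21 (0.01 to 0.40) in bottom cells. The other family sums by zone had intervals that included 0, with Ces at -0.10 in bottom and -0.15 in Sis cells.

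**Figure D4:**
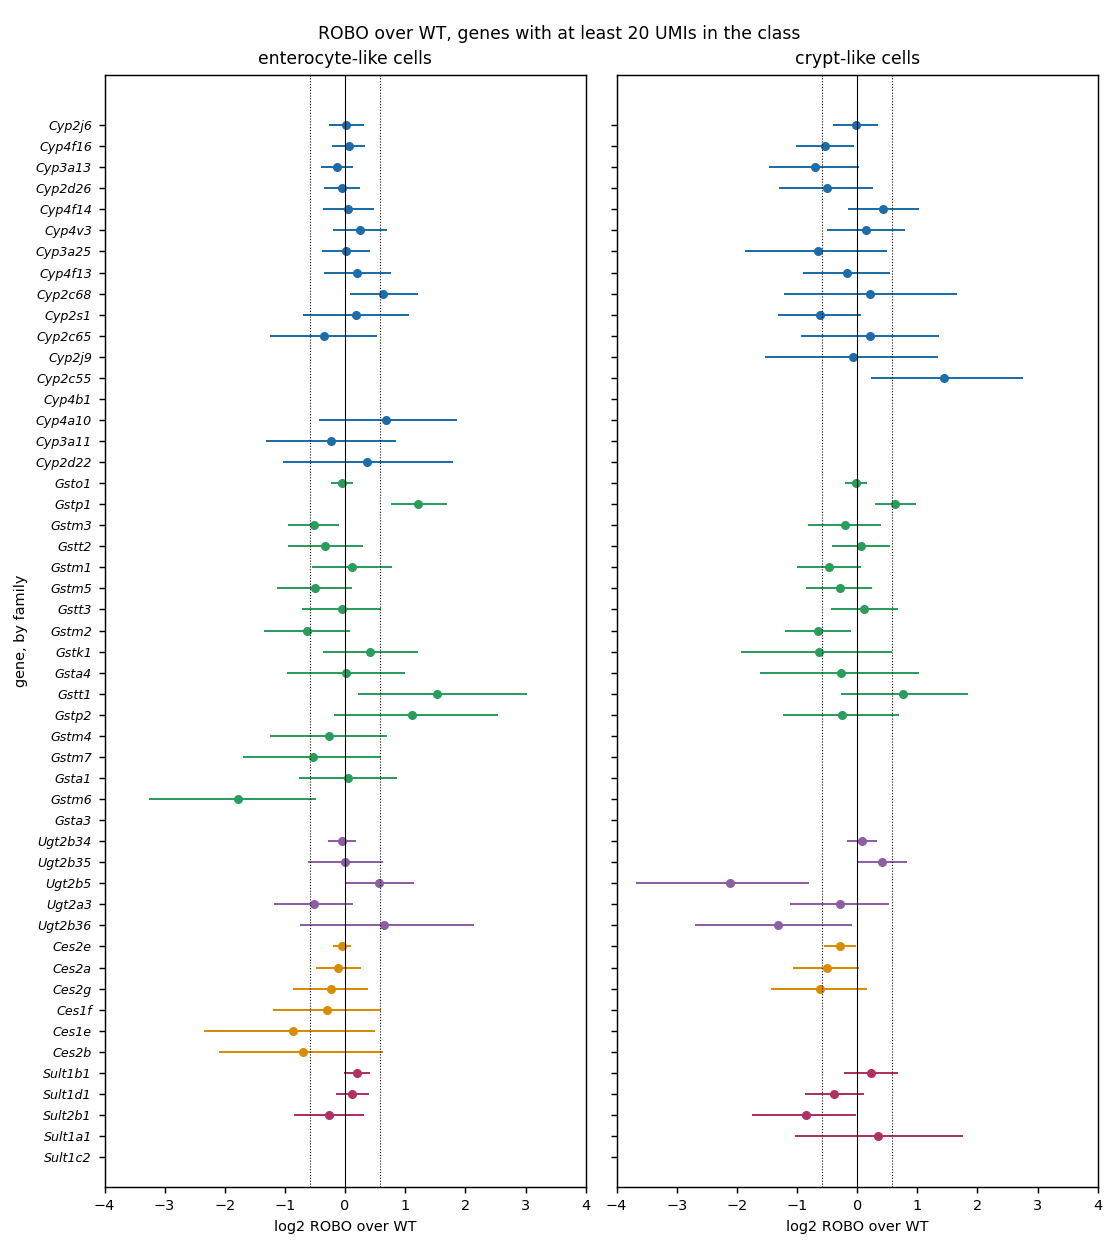
For each gene with at least 20 UMIs in the class (vertical axis), the point gives the log2 ratio of ROBO over WT UMIs per 10000 (horizontal axis) in enterocyte-like cells (left) and crypt-like cells (right), with the exact 95% counting interval as a line cut at 4 on either side and dotted lines at 1.5-fold. Gstp1 lies to the right in both panels, and Ugt2b5 lies at -2.11 in crypt-like cells.

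Gstp1 had the largest ROBO over WT ratio of the genes with at least 100 UMIs over all cells. It had 264 UMIs in WT and 397 in ROBO, or 0.98 and 1.63 UMIs per 10000, for a log2 ratio of 0.73 (0.50 to 0.96). The ratio was 1.22 (0.77 to 1.67) in enterocyte-like cells, from 60 and 145 UMIs (0.60 with clustering at resolution 0.4), and 0.64 (0.31 to 0.96) in crypt-like cells, from 139 and 186 UMIs. In bottom cells 27 WT UMIs stood against 86 ROBO UMIs, so that the log2 ratio was 1.93 (1.29 to 2.61). There 19 of 101 WT cells (18.8%) and 46 of 77 ROBO cells (59.7%) had a Gstp1 UMI, at median depths of 2092 and 2667 UMIs, no cell held more than 3 in WT and 7 in ROBO, and the 5 cells with most held 44.4% and 24.4% of the UMIs. In stem cell-like cells the interval of the ratio included 0, at 0.29 (-0.37 to 0.95). Whether mice or libraries differ as much within a genotype cannot be told from the pooled matrices.

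**Figure D5:**
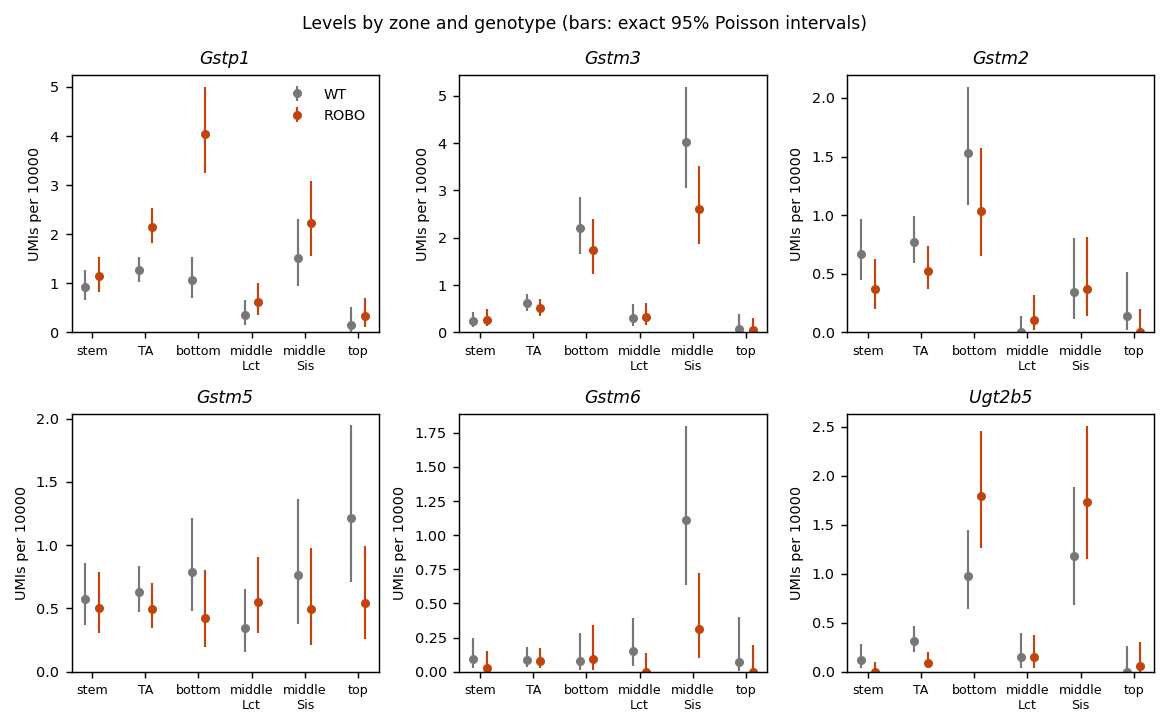
Each panel plots 1 gene as UMIs per 10000 UMIs (vertical axis) in the 6 zones (horizontal axis) for WT and ROBO, with exact 95% Poisson intervals as bars. Gstp1 in bottom cells is at 4.05 in ROBO and 1.06 in WT, the Gstm genes lie mostly lower in ROBO, and Ugt2b5 is lower in TA-like and higher in bottom cells of ROBO.

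The Gstm cluster lay the other way. The summed UMIs of its 7 genes were 836 for WT against 586 for ROBO (log2 ratio -0.37, -0.52 to -0.22). Each of the 7 was below 0, where 49.4% of all genes were, and the cluster was picked after its values were seen. Gstm6 had 43 UMIs in WT and 15 in ROBO (-1.38, -2.33 to -0.50), Gstm2 had 155 and 94 (-0.58, -0.96 to -0.20) and Gstm3 had 224 and 156 (-0.38, -0.68 to -0.08). Gstm1, with 168 and 146 UMIs, had a ratio of -0.06 (-0.39 to 0.27) that included 0. Of the 3′ windows of Gstm1, 15.9% also occur in other genes, Gstm3 among them. The sum was lower in ROBO in crypt-like cells, at -0.42 (-0.67 to -0.17), and in enterocyte-like cells, at -0.48 (-0.72 to -0.23). In enterocyte-like cells 6 of the 7 were below 0, where 51.6% of all genes were, and Gstm1 was at 0.11.

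In crypt-like cells more of the genes were below 0 than above it. Of 37 genes with at least 20 UMIs there, 9 were at least 1.5-fold lower (6.33% of all genes) and 3 higher (7.45%), 24 were below 0 against 46.8% of all genes, and their median log2 ratio was -0.26 against 0.03. The same held in TA-like cells, where 24 of 33 genes were below 0 (43.7% of all genes) and the median was -0.23 against 0.06, while in stem cell-like cells 12 of 21 were (52.5%) and both medians were -0.03. By family sum the log2 ratio was -0.36 (-0.57 to -0.15) for Ces, -0.15 (-0.33 to 0.03) for Cyp, -0.13 (-0.40 to 0.15) for Sult, -0.02 (-0.13 to 0.09) for Gst and 0.02 (-0.17 to 0.21) for Ugt, so that Ces alone of the 5 had an interval below 0. All 50 genes together gave -0.09 (-0.17 to -0.02). Within Cyp, the Cyp3 genes had 70 and 37 UMIs (-0.70, -1.32 to -0.11). Ugt2b5 had 30 and 6 UMIs (-2.11, -3.66 to -0.82). The 18 middle enterocyte markers, all of them detected in the matrices, summed to 35.7 UMIs per 10000 in WT and 31.1 in ROBO crypt-like cells. The 12 top enterocyte markers summed to 16.6 and 16.4 there, and the 10 bottom enterocyte markers, slightly higher in ROBO, to 64.5 and 65.6. The part that these markers' cells had in the lower levels was not tested.

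Other genes among those furthest from equal had fewer UMIs. Cyp2c68 had 78 UMIs in WT and 108 in ROBO (0.61, 0.18 to 1.05), and Gstt1 had 44 and 61 (0.61, 0.03 to 1.21). Sult2b1 had 117 and 77 UMIs (-0.46, -0.89 to -0.03), Ces2g 120 and 81 (-0.42, -0.85 to -0.01) and Gstm5 166 and 117 (-0.36, -0.72 to -0.01). Cyp4v3 (0.29, -0.03 to 0.61) and Gsta4 (0.28, -0.30 to 0.85), the next highest, had intervals that included 0.

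Other genes of drug metabolism outside the 5 families, whose values took part in the clustering, are given as counts, to be read against the same shares of all genes, 8.61% higher and 17.3% lower in enterocyte-like than crypt-like cells. Of 29 other phase I genes with at least 20 UMIs, 14 were at least 2-fold higher in enterocyte-like than crypt-like cells in both genotypes and 1, Ephx1, an epoxide hydrolase, was lower. Of 17 genes of phase II and cofactor supply, 5 were higher (Gclm, Ugdh, Papss2, Nat2 and Nat8) and 0 lower, with Ugdh and Papss2 known to make the donors used by Ugt and Sult enzymes. Of 10 transporters 3 were higher (Abcc2, Slc22a4 and Slc47a1) and 1, Abcc1, was lower, and of 15 regulators 2 were higher (Nr1i3 and Nr1h4) and 1, Vdr, was lower. The genes with most UMIs were Akr1a1, Aldh1b1 and Cyb5a among the phase I genes, Abcg2, Abcc2 and Slco2b1 among the transporters, and Hnf4a, Vdr and Nfe2l2 among the regulators. In enterocyte-like cells the phase I, phase II, transporter and regulator lists had, in that order, 1 of 28, 0 of 16, 1 of 7 and 0 of 15 genes at least 1.5-fold higher in ROBO, and 1, 2, 1 and 1 lower, where 7.38% and 9.46% of all genes were.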

How the data were processed

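The authors processed ddSEQ single-cell reads (SureCell 3′ kit) in BaseSpace, and what they deposited is a matrix of unnormalized UMI counts for each genotype. The submitters' processing notes name GRCm38 and mm10, and the aligner is not given in the sources used here. Cells could not be tied to the 16 samples, so each genotype is 1 pooled sample, and no deposited column of sample values was left unused. UMIs count molecules, yet cells of 1 library share their source.

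Cells were clustered with Seurat 5.3.0 in R 4.3.3 on 13201 genes found in at least 3 cells, with 2000 variable genes, 20 components, resolution 0.8 and S and G2/M scores regressed out. The 160 family symbols were kept out. No cell was filtered and no doublet caller was run, so doublets may remain. The rule that named clusters was set after they were seen: at least 3 markers of the list raised 1.5-fold (0.1 added) in at least 10% of cells, and no more markers of another class than of its own among the 10 leading genes. The 13 clusters gave 9 named classes and unnamed cells.

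UMIs were summed per class and genotype and divided by the class total. Levels carry exact Poisson intervals and ratios conditional exact intervals (scipy 1.17.1, 95%). A gene counted between zones when it passed 2-fold in both genotypes, and between genotypes past 1.5-fold, each read against all genes with at least 20 UMIs. Bounds use 3 counts. The scripts were tested on simulated data. Named genes are the 5 with most UMIs per family, the 5 highest and 5 lowest of those with at least 100 UMIs for each ratio, and the 3 on either side of the minimum; the others were named after their values were seen, for small counts and for the clusters of related genes. Sharing at 3′ ends was checked with windows of 75 bases in the last 500 bases of GENCODE M21 transcripts. Levels are 3′ end counts and were not corrected for length. Members and gene lists were chosen with earlier results of these data known. Alternatives covered clustering, weighting, scaling, depth, thinning, the minimum of UMIs and the zones.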

Additional observations from a re-analysis of the deposited data

Results flagged for a closer look

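Ugt2b5 went in opposite directions in the zones, with a log2 ratio of ROBO over WT of -2.11 in crypt-like cells (-3.66 to -0.82) and 0.57 in enterocyte-like cells (0.01 to 1.14). The difference was not tested.

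Some genes had their highest level in classes that the zone comparisons did not use. Gstt1 was at 5.13 UMIs per 10000 in 29 enteroendocrine-like cells, from 16 UMIs in WT and 7 in ROBO, but a single cell held 11 of the UMIs in WT and 5 in ROBO. Cyp4b1 was at 2.90 UMIs per 10000 in the same class, from 11 UMIs in 4 of 15 WT cells and 2 UMIs in 2 of 14 ROBO cells. Gsta4 was at 1.26 in secretory-like cells, from 12 UMIs in 7 of 62 WT cells and 19 UMIs in 6 of 64 ROBO cells, of which 5 cells held 83.3% and 94.7%, and Gstm1 at 1.14 there, from 15 and 13 UMIs. Sult1a1 was at 0.460 in the unnamed cluster led by Reg3b. Each of these levels stood above that of the 6 zones and of the immune-like cells.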

How the results depend on the processing

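Of 15 alternatives, 1, in which the unnamed clusters were named by marker score, was chosen after seeing the data. They gave 217 values for the counts and the family ratios, of which 160 stayed within their counting interval or 1.5 times the count and 57 moved, and 330 values of named genes, of which 30 moved. No ratio whose counting interval was clear of 0 changed sign. All 110 family ratios of enterocyte-like over crypt-like cells stayed above 0 (log2 0.12 to 3.07), and the number of genes at least 2-fold higher stayed between 19 and 29, with 26 as reported. Against 0 genes at least 2-fold lower in both genotypes, 4 were lower at resolution 0.4 (Ces1e, Cyp2c55, Gstm2 and Ugt2b35), 3 without bottom enterocyte-like cells (Ces1e, Gstm2 and Ugt2b35), and 1, Cyp2c55, in thinned cells and with stem cell-like cells as the only crypt cells. At resolution 0.4 the WT log2 ratios were 2.13 for Cyp, 0.29 for Ugt, 2.48 for Ces and 2.83 for Sult, and in ROBO 2.33, 0.26, 2.79 and 2.67. Scaled by the median gene ratio, the ratios of Cyp, Gst, Ugt, Ces and Sult were 2.11, 0.58, 0.87, 2.13 and 2.36 in WT and 2.38, 0.67, 0.92, 2.49 and 2.72 in ROBO. Without bottom enterocyte-like cells those of Cyp, Gst, Ugt and Ces were 2.02, 0.17, 0.15 and 1.59 in WT and 2.21, 0.12, 0.14 and 1.96 in ROBO. Against stem cell-like cells alone those of Gst, Ugt, Ces and Sult were 0.52, 0.83, 2.87 and 2.94 in WT, and those of Cyp, Gst, Ugt, Ces and Sult in ROBO 2.33, 0.50, 0.85, 3.07 and 2.75. With equal weight per cell Ugt was 0.41 in WT, and Cyp, Ugt and Ces were 1.75, 0.23 and 1.96 in ROBO. Without cell cycle regression Cyp in WT was 2.18, and with marker score names Sult in WT was 1.84 and Cyp in ROBO 1.88. Between genotypes, the 6 genes higher in ROBO enterocyte-like cells became 3 at resolution 0.4, 1 in thinned cells, 10 with a minimum of 10 UMIs and 2 (Cyp2c68 and Gstp1) with a minimum of 50. The 4 lower genes became 8 with equal weight per cell, 1 with a minimum of 50 UMIs, 7 without the 5 cells holding most UMIs of each gene, and 2 with equal weight for bottom, middle and top. With equal weight per cell the log2 ratio of ROBO over WT was -0.10 for Cyp and -0.21 for Ces, and in thinned cells 0.12 for Gst. Gstp1 stayed at least 1.5-fold higher in ROBO enterocyte-like cells in every alternative, with 0.60 at resolution 0.4 as its lowest log2 ratio. The cause of these moves was not tested. No paired analysis was possible because the columns carry no sample or replicate number, and for the same reason no replicate could be left out.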
